A study of Mus musculus with 12 samples.

Results

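The genes of the Wnt pathway were followed across 4 groups of mouse neural cells. The set held 52 of the 45706 genes in the count table, each found by matching its Ensembl identifier to the gene symbol. It was made of 19 Wnt ligands, 12 receptors (the Frizzled genes *Fzd1* to *Fzd10* with *Lrp5* and *Lrp6*), 7 genes of the R-spondin and Lgr arm, 9 secreted inhibitors and 5 target or feedback genes. In all, 45 of the 52 members passed the filter on low counts and were tested, among 17003 genes tested.

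RNA was sequenced from 12 cultures of mouse embryonic stem cell origin, with 3 libraries a group. The study asked what happens when *Sox1*, a transcription factor of early neural stem cells, is switched on in cells of a later neural stage. NPC, labelled baseline, were *Sox1*-negative glial progenitors that were not sorted. NPC(+) were *Sox1*-positive glial progenitors that had been sorted, in which dCas9-VP64, a Cas9 without cutting activity joined to a transcriptional activator, was directed to the *Sox1* promoter. The libraries labelled NSC were described as coming from unsorted neuroepithelial cells, called neural stem cells. Those labelled NR were described as coming from neuroepithelial cells sorted for GFP, called neural rosettes. All 4 groups had the C57BL/6 background and carried GFP in 1 allele of *Sox1*, so sorted cells were chosen by the reporter of the very gene under study. The lines with dCas9-VP64 were each grown from a single cell, and the replicates were made on separate days in separate clonal lines. Sorting and group cannot be told apart in NPC(+) against NPC or in NR against NSC, and NPC and NSC differ in culture as well as in stage. The study also delivered guide RNAs, which direct dCas9-VP64 to the promoter, and selected for them with an antibiotic. These steps may differ between NPC(+) and NPC too.

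Wnt proteins are secreted lipid-modified ligands that bind a Frizzled receptor together with Lrp5 or Lrp6. In the canonical branch, binding stops the Axin complex from destroying β-catenin, which then joins Tcf and Lef factors on DNA and raises genes such as *Axin2*, *Nkd1*, *Sp5* and *Notum*, several of which dampen the signal in turn. R-spondins and their Lgr receptors keep Frizzled proteins on the cell surface, whereas Sfrp, Dkk and Notum proteins act outside the cell against ligands or receptors. In the developing nervous system, Wnt signals are known for their part in dorsal patterning, in the growth of progenitors and in gliogenesis.

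The libraries differed in depth, with totals of 4939268 to 18351483 counts in NPC, 3407066 to 6315574 in NPC(+), 29046205 to 43095688 in the NSC-labelled ones and 16707006 to 34594885 in the NR-labelled ones. *Sox1* stood at 4.83, 6.00 and 5.43 CPM (counts scaled to a common library size by TMM) in NPC and at 20.3, 20.9 and 21.7 CPM in NPC(+), a 3.93-fold rise (adjusted p = 0.00221, quasi-likelihood F test of edgeR, adjusted by the Benjamini-Hochberg (BH) method). It stood at 48.6 to 65.0 CPM in the NSC-labelled libraries but at 4.62, 20.0 and 19.2 CPM in the NR-labelled ones. The NR values were thus below NSC, although the NSC cells were described as unsorted. The labels NR and NSC are in doubt from this and from the pluripotency values that follow, and an exchange of the labels was not tested. NR and NSC values are therefore those of the libraries so labelled. The 6 markers of pluripotent cells summed to 1530 to 2894 CPM in the NR-labelled libraries, to 52 to 152 in the NSC-labelled ones and to 6.68 to 10.01 in NPC and NPC(+). The 6 mesenchyme markers summed to 1331 to 5818 CPM in NR, 853 to 2672 in NSC and 43.4 to 62.6 in NPC and NPC(+). The 6 neural progenitor markers summed to 749 to 1274 CPM in NR, 2129 to 2312 in NSC, 1827 to 1938 in NPC and 1487 to 1544 in NPC(+). Of these 6 progenitor genes, 1 was called higher and 3 lower in NPC(+) than in NPC, and 4 higher and 2 lower in NSC than in NPC. The 6 radial glia and astrocyte markers summed to 3126 to 3432 CPM in NPC, 1510 to 1585 in NPC(+) and 51.6 to 63.9 in NSC and NR, a sum made up mostly of *Slc1a3* and *Aldoc*, and of the 6 genes 2 were called higher and 2 lower in NPC(+) than in NPC. Replicate 2 of NSC and replicate 2 of NR stood furthest from their replicates in a comparison of counts, and both were lowest of their group in each of the 6 pluripotent markers. They were lowest also in the mesenchyme sum, made up mostly of *Col1a1* and *Col3a1*, but highest in *Twist1*, *Foxc1* and *Foxc2* of that list. In bulk RNA, fewer cells that express a gene cannot be told apart from less of its RNA per cell, which holds for every value below.

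The promoters of 4 members are shown because the results turn on their genes. *Axin2* and *Sp5* are feedback or target genes of canonical signalling, *Dkk1* encodes a secreted inhibitor that blocks Lrp5 and Lrp6, and *Fzd9* encodes the receptor with the largest fall in NPC(+). Each line gives the 250 bases before the RefSeq transcript start on the strand of the gene (GRCm38.p6), and capitals mark matches to the Tcf/Lef heptamers CTTTGAA and CTTTGAT as well as CTTTGTA and CTTTGTT on either strand.
Axin2, chr11:108920099-108920348, plus strand: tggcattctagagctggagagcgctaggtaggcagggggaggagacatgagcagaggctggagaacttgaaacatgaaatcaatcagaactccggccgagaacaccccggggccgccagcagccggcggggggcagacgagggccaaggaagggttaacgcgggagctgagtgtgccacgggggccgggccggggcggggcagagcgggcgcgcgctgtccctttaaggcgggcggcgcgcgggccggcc
Sp5, chr2:70474673-70474922, plus strand: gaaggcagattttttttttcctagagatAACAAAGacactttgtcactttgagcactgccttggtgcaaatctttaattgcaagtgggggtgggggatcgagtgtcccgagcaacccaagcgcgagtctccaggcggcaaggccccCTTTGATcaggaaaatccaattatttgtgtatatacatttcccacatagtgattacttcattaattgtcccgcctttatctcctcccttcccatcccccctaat
Dkk1, chr19:30549497-30549746, minus strand: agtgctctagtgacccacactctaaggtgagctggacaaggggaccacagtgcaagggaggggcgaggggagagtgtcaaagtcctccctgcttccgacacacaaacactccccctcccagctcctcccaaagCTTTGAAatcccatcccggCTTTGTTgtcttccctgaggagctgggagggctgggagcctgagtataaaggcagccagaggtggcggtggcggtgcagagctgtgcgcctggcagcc
Fzd9, chr5:135251048-135251297, minus strand: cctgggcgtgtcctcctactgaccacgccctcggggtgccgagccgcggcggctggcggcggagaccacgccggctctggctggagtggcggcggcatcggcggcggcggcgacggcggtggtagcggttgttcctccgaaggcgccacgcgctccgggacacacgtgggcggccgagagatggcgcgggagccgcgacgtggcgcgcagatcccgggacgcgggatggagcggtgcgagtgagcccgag

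*Sp5* had 2 matches and *Dkk1* had 2, while *Axin2* and *Fzd9* had 0 in these windows. The GENCODE starts of *Fzd9* and *Dkk1* lie 183 and 169 bases upstream of the RefSeq starts used here. Those parts of the windows, with the *Dkk1* matches, lie inside the GENCODE genes. Of 34 members in the promoter table, 4 held a match (11.8%), namely *Wnt11*, *Fzd7*, *Dkk1* and *Sp5*. Of all 32851 promoter windows of this length, 14.8% held one, so a match was no more common among the members than elsewhere. A match is a string of letters and was not read as a binding site.

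NPC(+) had lost nearly all RNA of the receptor gene *Fzd9* and held less *Lgr5* and *Nkd1* than NPC. They held more *Sfrp1*, *Fzd10*, *Fzd8* and *Axin2*. Between NPC(+) and NPC, 12 members were higher and 3 were lower at an adjusted p under 0.1, edgeR's quasi-likelihood test. This came to 33.3% of the 45 tested members, against 44.3% of all genes tested (21.6% higher and 22.7% lower). The 3 libraries of the groups did not overlap for 21 members, against 52.7% of all genes. The median log2 fold change was 0.43 over the tested members and 0.00 over all genes. In all, 4 of the rises, of *Sfrp1*, *Fzd8*, *Fzd10* and *Axin2*, and the 3 falls, of *Fzd9*, *Lgr5* and *Nkd1*, passed in every alternative fit at the same threshold. *Rspo1* was not tested, for its low counts, when only these 2 groups were fitted, and passed in the other 12 alternatives. The other 7 rises were under 1.4 on the log2 scale, and each call was lost in some fit without 1 library. *Wnt5b* fell to a log2 fold change of 0.33 without NPC(+) replicate 2 and *Wnt2b* to 0.63 without NPC(+) replicate 3, while *Fzd3* and *Lef1* missed the threshold whichever of the 6 libraries was left out. *Wnt5a* missed it without NPC replicate 2 or 3 or NPC(+) replicate 2 or 3, *Fzd7* without any but NPC(+) replicate 1, and *Fzd1* without NPC replicate 1 or NPC(+) replicate 2, with adjusted p values up to 0.167, 0.172 and 0.134 by the same test. Over the alternatives, log2 fold changes stayed at 0.58 to 0.68 for *Fzd3*, 0.39 to 0.55 for *Lef1*, 0.56 to 0.72 for *Wnt5a*, 0.44 to 0.56 for *Fzd7* and 0.35 to 0.51 for *Fzd1*, and the fits without a library have fewer libraries. Without NPC replicate 1, 2 or 3, 6, 6 and 7 members were higher, and without NPC(+) replicate 1, 2 or 3 the numbers were 10, 6 and 6. With a change of more than 4-fold required, 2 members were higher, *Sfrp1* and *Rspo1* (3.87% of all genes), and 1, *Fzd9*, was lower (1.92%). Of these, *Rspo1* rested on 9 counts in NPC(+) and 1 in NPC.

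**Figure D1:**
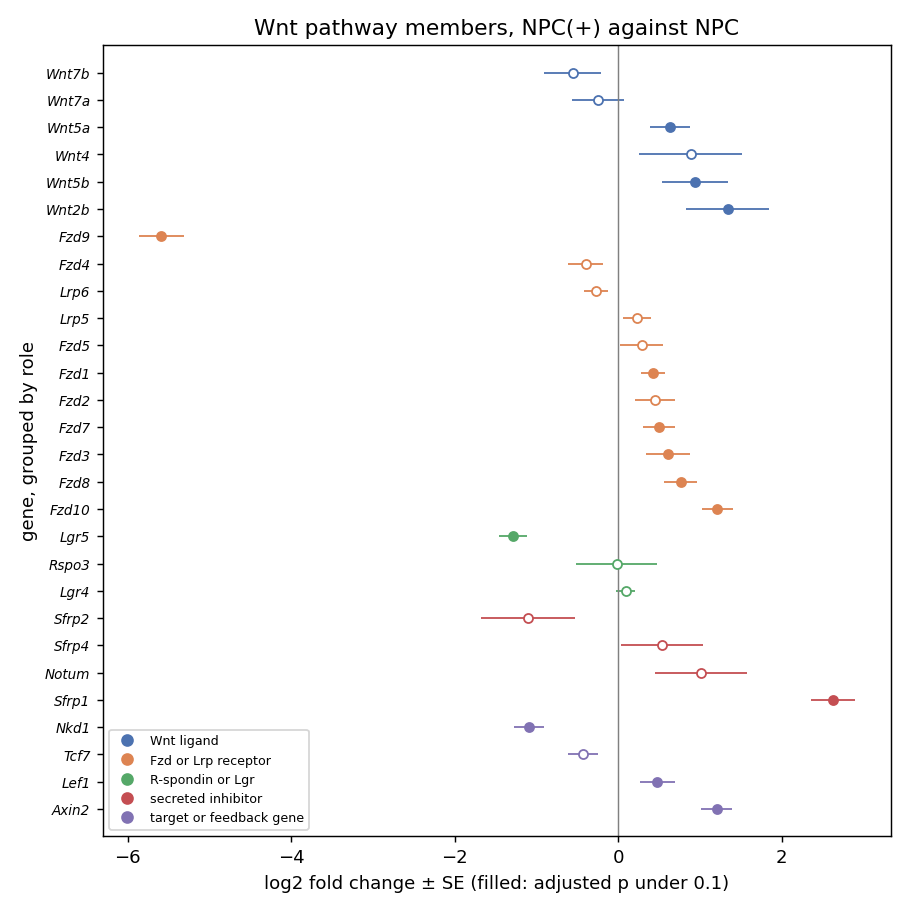
Log2 fold change of NPC(+) against NPC with its standard error for the 28 tested members that had more than 3 counts in at least 1 library of both groups, grouped by role (3 libraries a group; filled points passed at an adjusted p under 0.1). *Fzd9* lies far to the left at -5.59 and *Sfrp1* furthest to the right at 2.63, while most others lie within 1.5 of zero.

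Against NPC, both the NSC-labelled and the NR-labelled libraries had far more *Sfrp1*, *Sfrp2*, *Dkk3*, *Fzd6*, *Lgr4* and *Wnt4* and, in CPM, less *Lgr5*, *Nkd1* and *Fzd9*. Between the NSC-labelled libraries and NPC, 32 members were higher and 6 lower by the same test, 84.4% of those tested against 78.1% of all genes (44.4% higher and 33.7% lower). Between the NR-labelled libraries and NPC, 31 were higher and 9 lower, 88.9% against 79.8% of all genes (45.6% higher and 34.1% lower). The groups did not overlap for 33 and 38 members, against 77.3% and 77.8% of all genes. The median log2 fold changes were 2.47 and 2.93, against 0.20 and 0.19 over all genes, and 2.31 and 2.79 with genes of 3 counts or fewer in NPC set to their bound or ratio. These counts lean on the filter, since 13 of the tested members had 3 counts or fewer in each NPC library and all 13 were called higher in both comparisons. Of these, 2 had no count in any NPC library and are given as lower bounds against a floor of 3 counts per library. More than 4-fold changes were called higher for 26 members in NSC (19.5% of all genes) and 25 in NR (22.0%), and lower for *Lgr5* in each (5.9% and 6.03%).

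The NR-labelled libraries had less *Wnt7a*, *Wnt7b*, *Sfrp1*, *Sfrp2* and *Fzd3* than the NSC-labelled ones and more *Notum*, *Sfrp5*, *Wnt8a*, *Fzd5* and *Rspo3*. Between the NR-labelled libraries and NSC, 14 members were higher and 18 lower by the same test, 71.1% of those tested against 56.6% of all genes (30.0% higher and 26.6% lower). The groups did not overlap for 26 members, against 56.7% of all genes. More than 4-fold changes were called for *Wnt8a*, *Sfrp5* and *Notum*, all higher (7.34% of all genes), and for no lower member (0.124%). Libraries of the same number deviated together in these 2 groups, although no label states a pairing. The values of this comparison come from the fit with no block unless stated. With the number as a block, 16 members were higher and 21 lower. The calls gained were *Wnt2* at a log2 fold change of 1.02 (adjusted p = 0.0159, blocked edgeR fit, BH-adjusted) and *Dkk2* at 0.75 (adjusted p = 0.0201) on the higher side. On the lower side they were *Fzd2* at -0.39 (adjusted p = 0.0825), *Wnt3* at -0.50 (adjusted p = 0.0928) and *Wnt5b* at -0.50 (adjusted p = 0.0573).

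Among the ligands, *Wnt7b* had the highest level per length in all 4 groups. Its mean was 30.0 TPM (counts divided by exon length and scaled to a fixed sum in each library) in NPC and 22.7 TPM in NPC(+), against 105 TPM under the label NSC and 29.5 TPM under NR. *Wnt5a*, a ligand best known for branches that bypass β-catenin, came next in NPC(+) (12.6 TPM). *Wnt7a*, a close relative of *Wnt7b*, came next in NSC (81.0 TPM) and NR (21.3 TPM). In NPC these 2 were level, with *Wnt5a* at 7.21 TPM and *Wnt7a* at 7.145 ± 1.01 TPM (SD, n = 3). The summed level of the 19 ligands was 47.3 ± 1.93 TPM (SD, n = 3) in NPC and 47.1 ± 4.52 in NPC(+). It was 255 ± 64.7 TPM in the NSC-labelled libraries and 103 ± 22.9 in the NR-labelled ones. TPM and CPM scaled differently between groups, so TPM values cannot be read as folds between groups. The receptor gene *Fzd1*, for example, had means of 32.4 TPM and 62.8 CPM in NPC, against 50.5 TPM and 61.0 CPM in NSC. In NR its means were 34.3 TPM and 46.2 CPM. *Wnt7b* made up 63.4% of the ligand RNA in NPC and 48.3% in NPC(+), against 41.1% in NSC and 28.8% in NR. In NPC 9 ligands had more than 3 counts in at least 1 library and in NPC(+) 7, against 18 and 19 in the much deeper libraries labelled NSC and NR.

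**Figure D2:**
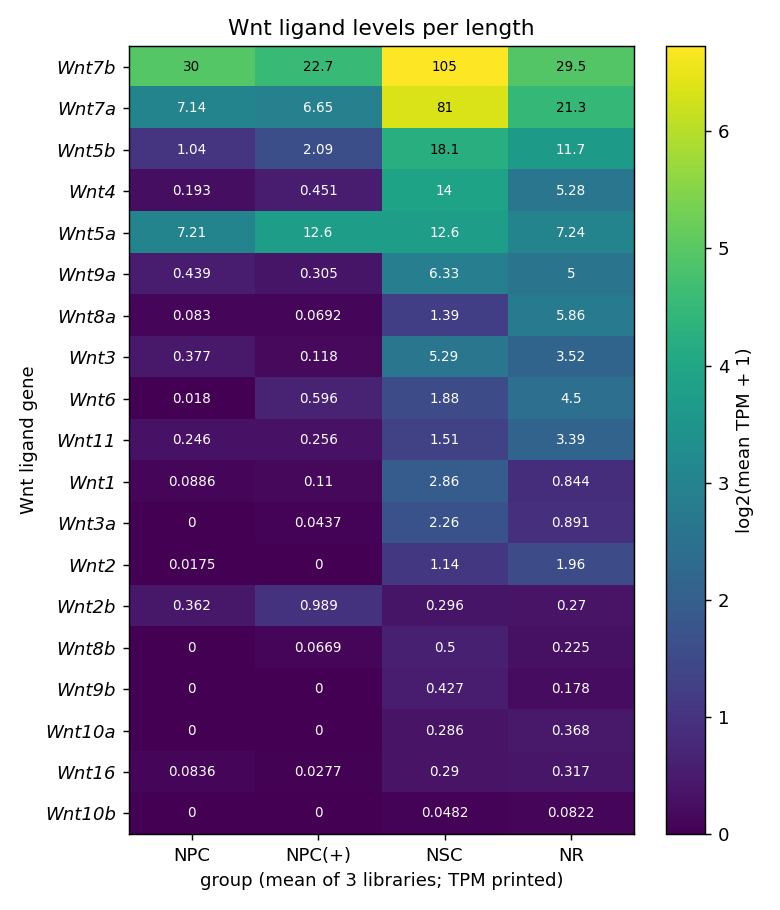
Mean level per length of the 19 Wnt ligands in each group of 3 libraries, with the TPM printed in each cell and the colour on a log2(TPM + 1) scale. *Wnt7b* heads every column, and the lower part of the plot, from *Wnt2b* down, stays under 1 TPM in all groups.

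*Wnt7b* stood at 70.9, 65.7 and 68.0 CPM in NPC, 44.0, 50.9 and 43.9 in NPC(+), 189, 67.1 and 184 in the NSC-labelled libraries and 33.1, 37.5 and 70.4 in the NR-labelled ones. NSC replicate 2 lay among the NPC values, apart from the other two. The rise in NSC over NPC was 1.103 ± 0.33 (log2 fold change ± SE, adjusted p = 0.00817, edgeR's quasi-likelihood test, BH-adjusted) and the difference of NR from NSC was -1.64 ± 0.33 (adjusted p = 0.00106). In NPC(+) it was -0.56 ± 0.35 and did not pass (adjusted p = 0.242, same test) although all 3 libraries were below all 3 of NPC, and it passed with no filter and with only these 2 groups fitted.

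*Wnt7a* stood at 10.8, 8.93 and 11.9 CPM in NPC, 7.82, 9.42 and 9.01 in NPC(+), 74.9, 67.0 and 79.1 in NSC and 10.9, 25.7 and 28.7 in NR. The NSC libraries were above all others, and NR replicate 1 overlapped NPC. The log2 fold change against NPC was 2.81 ± 0.28 in NSC (adjusted p = 5.99e-07, edgeR's quasi-likelihood test, BH-adjusted) and 1.07 ± 0.27 in NR (adjusted p = 0.00269), and NR was lower than NSC by -1.74 ± 0.25 (adjusted p = 8.44e-05). Both ligands can signal through β-catenin and are known from the embryonic forebrain.

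*Wnt5a* stood at 28.1, 25.4 and 25.3 CPM in NPC and 37.4, 44.3 and 40.5 in NPC(+), with no overlap, at a log2 fold change of 0.63 ± 0.25 (adjusted p = 0.0585, edgeR's quasi-likelihood test, BH-adjusted). In the NSC-labelled libraries it was 34.2, 18.8 and 31.8 CPM and in the NR-labelled ones 21.2, 11.8 and 22.2, with replicate 2 the lowest of both groups. The log2 fold changes were 0.10 ± 0.24 for NSC against NPC (adjusted p = 0.706, same test), -0.52 ± 0.24 for NR against NPC (adjusted p = 0.0635) and -0.62 ± 0.23 for NR against NSC (adjusted p = 0.0378). Without NR replicate 2 the last 2 were -0.27 and -0.38 and did not pass.

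*Wnt5b*, related to *Wnt5a*, stood at 1.43, 0.977 and 1.46 CPM in NPC and 0.869, 3.93 and 2.17 in NPC(+), so that the groups overlapped. In NSC it was 13.7, 14.2 and 13.6 CPM and in NR 7.70, 12.5 and 9.69, all above NPC and NPC(+), at log2 fold changes against NPC of 3.398 ± 0.33 and 2.93 ± 0.33. *Wnt4*, a ligand known from the kidney and the nervous system, stood at 0.597, 0.140 and 0.417 CPM in NPC, 0.579, 0.942 and 0.834 in NPC(+), 15.1, 17.9 and 17.7 in NSC and 4.25, 10.3 and 6.69 in NR. It rose by 5.24 ± 0.41 in NSC (adjusted p = 5.54e-08, edgeR's quasi-likelihood test, BH-adjusted) and 4.004 ± 0.42 in NR (adjusted p = 1.00e-06), and NR was below NSC at -1.24 ± 0.27 (adjusted p = 0.00169). *Wnt9a* stood at 0.626 to 0.716 CPM in NPC and 0.290 to 0.5004 in NPC(+), against 5.28, 8.36 and 4.66 in NSC and 3.94, 9.03 and 2.89 in NR, with log2 fold changes over NPC of 3.12 ± 0.48 and 2.93 ± 0.48.

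Several ligands that were barely present in NPC reached low levels in NSC or NR. *Wnt3a*, a ligand classed as canonical, had no count in NPC and 1.17 to 2.10 CPM in NSC, at least 4.38-fold higher, and 0.554 to 0.955 CPM in NR, at least 1.95-fold higher. *Wnt8a*, a ligand of the early embryo, had 2 counts in all NPC libraries and was 10.5-fold higher in NSC (95% exact interval from counts 2.82 to 88.4) and 44.9-fold higher in NR (12.3 to 372). *Wnt6* had 1 count in NPC, and in NR it stood at 1.17, 6.94 and 1.18 CPM, so that replicate 2 was far above the other two.

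NR against NSC divided the ligands. *Wnt7a*, *Wnt7b*, *Wnt1*, *Wnt3a*, *Wnt4* and *Wnt5a* were lower in NR, at log2 fold changes of -1.74 to -0.62, and *Wnt8a* (2.21 ± 0.44), *Wnt6* (1.42 ± 0.64) and *Wnt11* (1.33 ± 0.31) were higher. The rise of *Wnt6* lay in NR replicate 2 and was 0.00 without it, and it missed the threshold also without NSC replicate 1 or 3. The 6 pluripotent markers were all higher in NR than in NSC by the same test, all 6 neural progenitor markers and 5 of 6 immature neuron markers were lower, and their part in the changes of ligands, Sfrp genes and Frizzled genes was not tested. Of the 5 ligands not tested, *Wnt8b*, *Wnt9b*, *Wnt10a*, *Wnt10b* and *Wnt16*, none exceeded 40 counts in any library or 0.50 TPM in any group mean.

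Among the receptors, *Fzd9* fell to a small remainder in NPC(+). It stood at 56.0, 74.5 and 62.2 CPM in NPC and at 1.16, 1.41 and 1.33 CPM in NPC(+), a log2 fold change of -5.59 ± 0.27, or 48.1-fold (adjusted p = 6.43e-09, edgeR's quasi-likelihood test, BH-adjusted). The NSC-labelled libraries held 37.7, 43.6 and 39.6 CPM and the NR-labelled ones 10.96, 19.5 and 17.4 CPM, so that NPC(+) was below every other library. The alternatives gave -5.66 to -5.48. *Fzd9* (ENSMUSG00000049551) lies on chromosome 5 at 135248938 to 135251230 of GRCm38, on the minus strand. The 94 tested genes of its 10 Mb window that passed a further cut on mean CPM had a median log2 fold change of 0.08. Against NPC, *Fzd9* was lower also in NSC (-0.67 ± 0.17, adjusted p = 0.00289) and NR (-1.99 ± 0.18, adjusted p = 2.01e-07, same test). In TPM, however, its means were alike in NPC (60.7) and NSC (61.15), so the fall in NSC depends on the scaling.

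**Figure D3:**
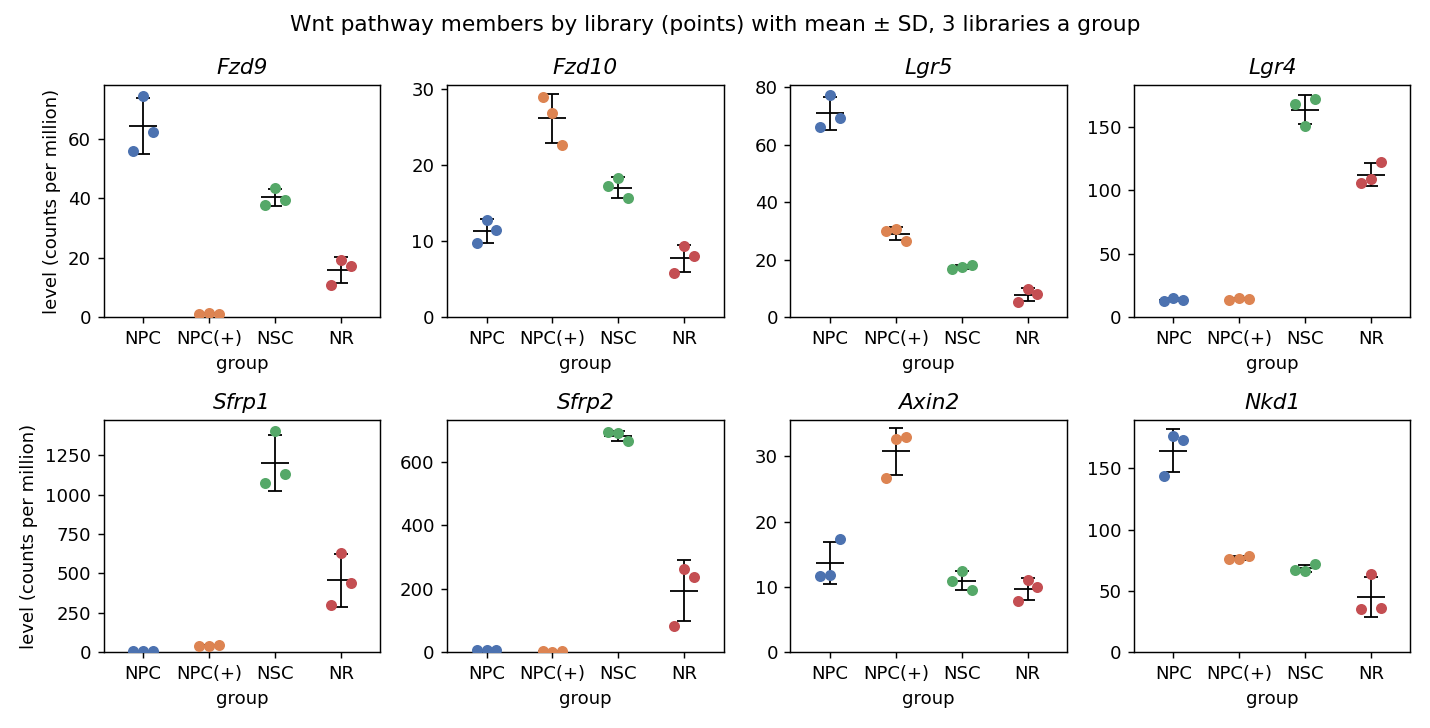
Level of 8 members in each of the 12 libraries in CPM (points), with the mean and SD of each group (black bars). *Fzd9* is near zero in NPC(+) alone, *Lgr5* and *Nkd1* are highest in NPC, *Axin2* and *Fzd10* are highest in NPC(+), and *Lgr4*, *Sfrp1* and *Sfrp2* are highest in NSC.

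*Fzd10*, by contrast, rose in NPC(+). It stood at 9.73, 12.8 and 11.5 CPM in NPC and 28.9, 26.8 and 22.7 in NPC(+), a log2 fold change of 1.21 ± 0.19 (adjusted p = 0.000175, edgeR's quasi-likelihood test, BH-adjusted). NSC lay between them at 17.2, 18.3 and 15.6 CPM, and NR lay lowest at 5.85, 9.39 and 8.01 CPM. *Fzd8* rose from 5.61, 5.58 and 5.22 CPM in NPC to 11.6, 8.32 and 8.67 CPM in NPC(+), at 0.76 ± 0.20 (adjusted p = 0.00781, same test), and was higher again in NSC (30.6 to 37.2 CPM) and NR (21.4 to 31.9 CPM). *Fzd1*, *Fzd3* and *Fzd7* had log2 fold changes of 0.43 ± 0.15, 0.61 ± 0.27 and 0.50 ± 0.19 in NPC(+), with no overlap between the libraries of NPC and NPC(+), and the calls were lost in some fits without 1 library while the log2 fold changes stayed in the ranges given above.

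*Fzd2* stood at 29.1, 30.1 and 32.6 CPM in NPC, 43.7, 36.0 and 45.5 in NPC(+), 112, 151 and 106 in NSC and 62.6, 137 and 87.0 in NR. *Fzd7* stood at 24.4, 24.4 and 21.9 CPM in NPC, 32.7, 35.5 and 32.0 in NPC(+), 119, 157 and 118 in NSC and 61.4, 103 and 65.8 in NR. Both rose in NSC over NPC, by 2.02 ± 0.24 and 2.47 ± 0.18 on the log2 scale, and in NR over NPC, by 1.66 ± 0.24 and 1.69 ± 0.18. Both were highest in replicate 2 within the groups NSC and NR. *Fzd1* stood at 54.3, 70.9 and 63.2 CPM in NPC, 88.0, 90.3 and 74.4 in NPC(+), 58.4, 63.8 and 60.7 in NSC and 40.7, 57.9 and 39.9 in NR. It was called higher in NPC(+) than in NPC, as given above, and was lower in NR than in NPC by -0.44 ± 0.14 on the log2 scale. *Fzd3*, whose product acts in axon guidance and planar polarity, stood at 22.7 to 24.0 CPM in NPC and 33.1 to 37.1 in NPC(+), against 108 to 114 in NSC and 20.6, 54.9 and 49.0 in NR. Its NR replicate 1 was below NPC.

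*Fzd6*, another receptor of the planar polarity branch, had 3 counts in all of NPC and 15.7 to 25.97 CPM in NSC and 14.6 to 25.8 CPM in NR. The ratio to NPC was 179 in NSC (95% exact interval from counts 61.2 to 869) and 183 in NR (62.6 to 890), and NR did not differ from NSC by the test (log2 fold change -0.02 ± 0.26). *Fzd5* was the 1 receptor higher in NR than in NSC, at 8.19 to 11.4 against 2.17 to 2.68 CPM and a log2 fold change of 1.99 ± 0.21 (adjusted p = 1.12e-05, edgeR's quasi-likelihood test, BH-adjusted). *Fzd4* and the co-receptors *Lrp5* and *Lrp6* had log2 fold changes of -0.61 to 0.39 over the 4 comparisons. Of these, *Lrp5* at -0.32 in both NSC and NR against NPC did not pass in 8 and 10 of 15 alternatives.

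Per length, the sum of the 10 Frizzled genes was 141 ± 23.9 TPM (SD, n = 3) in NPC and 130 ± 5.64 TPM in NPC(+), but its make-up differed. *Fzd9* was the leading Frizzled gene in NPC with 43% of the sum and *Fzd1* came next with 23.0%. In NPC(+), *Fzd1* led with 37.2% and *Fzd2* came next with 21.2%. In the NSC-labelled and NR-labelled libraries, *Fzd2* led with 28.0% and 33.7% and *Fzd7* came next with 24.2% and 21.8%, and the sums were 416 ± 39.1 and 242 ± 80.8 TPM. The limit on TPM between groups, given for the ligands, holds for these sums also.

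**Figure D4:**
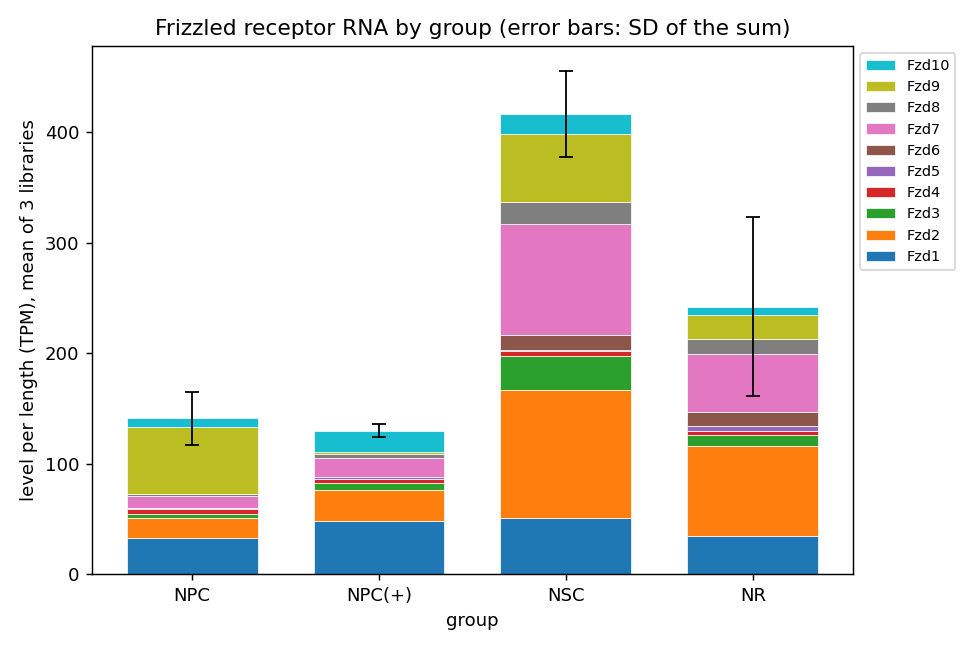
Mean level per length in TPM of the 10 Frizzled genes, stacked in each group of 3 libraries, with the SD of the sum as error bars. The *Fzd9* block is large in NPC and NSC and cannot be seen in NPC(+), whose sum of 130 TPM is close to the 141 TPM of NPC.

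In the R-spondin and Lgr arm, *Lgr5*, a receptor for R-spondins that is itself a canonical Wnt target and a stem cell marker in other tissues, fell in NPC(+). It stood at 66.4, 77.3 and 69.3 CPM in NPC, 30.1, 30.8 and 26.5 in NPC(+), 17.0, 17.6 and 18.2 in NSC and 5.54, 10.1 and 8.06 in NR, and no 2 groups overlapped. The log2 fold change was -1.29 ± 0.17 in NPC(+) (adjusted p = 3.81e-05, edgeR's quasi-likelihood test, BH-adjusted), -2.01 ± 0.16 in NSC and -3.15 ± 0.17 in NR against NPC. NR was lower than NSC by -1.14 ± 0.16 (adjusted p = 8.44e-05, same test).

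*Lgr4*, the most widely expressed R-spondin receptor, stood at 13.0, 15.3 and 13.8 CPM in NPC and 13.9, 15.7 and 14.7 in NPC(+), with a log2 fold change of 0.09 ± 0.12 (adjusted p = 0.586, edgeR's quasi-likelihood test, BH-adjusted). In NSC it stood at 168, 150 and 172 CPM and in NR at 106, 109 and 123 CPM, a rise of 3.55 ± 0.10 (adjusted p = 7.26e-12) and 3.01 ± 0.10 (adjusted p = 2.25e-11, same test) over NPC. Per length, *Lgr5* held 70.4% of the summed TPM of the arm in NPC and 46.6% in NPC(+), whereas *Lgr4* held 85.4% in NSC and 71.1% in NR.

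The R-spondin ligands were low throughout NPC and NPC(+). *Rspo1* had 1 count in NPC and 9 in NPC(+), a ratio of 16.3 (95% exact interval from counts 2.26 to 716), and reached 2.75, 2.52 and 3.84 CPM in NSC and 6.10, 3.58 and 5.14 in NR. *Rspo3* stood at 0.955, 0.837 and 1.46 CPM in NPC, 1.16, 0.628 and 1.33 in NPC(+), 4.14, 2.00 and 3.99 in NSC and 12.3, 12.9 and 9.08 in NR. It was higher in NR than in NSC by 1.74 ± 0.28 (adjusted p = 0.000193, edgeR's quasi-likelihood test, BH-adjusted), and *Rspo2* was higher by 1.41 ± 0.39 (adjusted p = 0.00791, same test), from 0.582, 0.829 and 0.914 CPM in NSC to 2.71, 1.26 and 2.28 CPM in NR. *Rspo1* at 0.69 ± 0.27 and *Lgr6* at 0.82 ± 0.37 were called higher in NR than in NSC as well, but each call was lost in 6 of 15 alternatives, among them the omission of NR replicate 1, with log2 fold changes down to 0.42 and 0.67. *Rspo4* was not tested and had at most 16 counts in a library.

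Of the secreted inhibitors, *Sfrp1*, which encodes a Frizzled-related protein that binds Wnt ligands, was low in NPC, higher in NPC(+) and very high in the NSC-labelled libraries. It stood at 6.56, 7.39 and 7.10 CPM in NPC, 41.7, 40.8 and 45.9 in NPC(+), 1073, 1406 and 1132 in NSC and 298, 633 and 439 in NR, and no 2 groups overlapped. The log2 fold change against NPC was 2.63 ± 0.27 in NPC(+) (adjusted p = 4.77e-06, edgeR's quasi-likelihood test, BH-adjusted), 7.44 ± 0.28 in NSC (adjusted p = 5.18e-11) and 6.04 ± 0.27 in NR (adjusted p = 2.30e-10).

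*Sfrp2*, its close relative, stood at 6.50, 6.42 and 6.68 CPM in NPC and 2.90, 1.88 and 4.34 in NPC(+), at -1.10 ± 0.58 (adjusted p = 0.157, edgeR's quasi-likelihood test, BH-adjusted), with all 3 NPC(+) libraries below all 3 of NPC. It was called lower in NPC(+) by DESeq2, with no filter, with the replicate block and with only these 2 groups fitted (adjusted p = 0.0578 by DESeq2 and 5.10e-06, 0.0677 and 0.00116 by edgeR). In NSC it reached 694, 691 and 665 CPM and in NR 83.4, 261 and 236 CPM, with NR replicate 1 the lowest. Against NPC the log2 fold change was 6.71 ± 0.39 in NSC and 4.89 ± 0.38 in NR. Both Sfrp genes were lower in NR than in NSC, *Sfrp1* by -1.40 ± 0.20 (adjusted p = 8.06e-05) and *Sfrp2* by -1.82 ± 0.29 (adjusted p = 0.000196, same test).

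The other inhibitors of the set were at or near the floor in NPC. *Dkk3* stood at 0.119, 0.279 and 0.209 CPM in NPC and 0.579, 0.471 and 0.5004 in NPC(+), against 34.3, 29.5 and 31.7 in NSC and 40.1, 28.6 and 31.8 in NR. It rose by 7.45 ± 0.27 in NSC and 7.52 ± 0.27 in NR, the Dkk gene with the highest TPM in both, and NR did not differ from NSC by the test (0.07 ± 0.14, adjusted p = 0.990, edgeR's quasi-likelihood test, BH-adjusted). *Dkk2* had no count in NPC and NPC(+) and was at least 7.78-fold higher in NSC and at least 12.9-fold higher in NR than in NPC.

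In all, 3 inhibitors were higher in NR than in NSC, opposite to *Sfrp1* and *Sfrp2*. *Notum*, a secreted enzyme that removes the lipid of Wnt proteins, stood at 0.955, 0.558 and 0.835 CPM in NPC, 1.74, 1.57 and 1.67 in NPC(+), 2.33, 0.863 and 2.01 in NSC and 12.9, 5.42 and 10.1 in NR. NR was higher than NSC by 2.42 ± 0.36 (adjusted p = 0.000109, edgeR's quasi-likelihood test, BH-adjusted). In NPC(+) its log2 fold change was 1.01 ± 0.56 and did not pass (adjusted p = 0.183), although the groups did not overlap, and it passed with the replicate block.

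*Dkk1* stood at 2.30, 1.24 and 3.17 CPM in NSC and 7.57, 8.23 and 6.603 in NR, and *Sfrp5*, another Frizzled-related gene, stood at 2.24, 1.17 and 2.44 CPM in NSC and 11.6, 5.74 and 10.2 in NR. Their log2 fold changes were 1.73 ± 0.31 (adjusted p = 0.000519, edgeR's quasi-likelihood test, BH-adjusted) and 2.22 ± 0.34 (adjusted p = 0.000141). In NPC, *Dkk1* had 2 counts and *Sfrp5* had 1. For *Notum* and *Sfrp5*, replicate 2 was the lowest library of both NSC and NR, as it was for each of the 6 pluripotent markers, whose part in these values was not tested. *Sfrp4* stayed at 0.417 to 1.45 CPM in all libraries and passed in no comparison, and *Dkk4*, with at most 3 counts in a library, was not tested.

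Per length, the 9 inhibitors of the set summed to 11.4 ± 0.763 TPM (SD, n = 3) in NPC and 30.2 ± 4.17 in NPC(+), against 2105 ± 102 in NSC and 679 ± 253 in NR. The limit on TPM between groups holds here too. *Wif1*, a secreted inhibitor outside the set that was high in NPC, is not in these sums and is given below. *Sfrp1* made up 78.5% of the sum in NPC(+) and 30.5% in NPC, where *Sfrp2* led with 57.5%. In NSC *Sfrp2* had 52.4% and *Sfrp1* 45.4%, and in NR *Sfrp1* had 48.1% and *Sfrp2* 41.3%.

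The target and feedback genes did not move together in NPC(+). *Axin2*, a scaffold of the β-catenin destruction complex and a widely used readout of canonical signalling, stood at 11.7, 11.9 and 17.3 CPM in NPC and 26.6, 32.7 and 32.9 in NPC(+), with no overlap. It rose by 1.21 ± 0.19 on the log2 scale (adjusted p = 0.000221, edgeR's quasi-likelihood test, BH-adjusted). The NSC-labelled libraries held 10.9, 12.4 and 9.45 CPM and the NR-labelled ones 7.88, 11.1 and 10.03 CPM, so that NPC(+) was above all other libraries. In NR *Axin2* was lower than in NPC by -0.46 ± 0.19 (adjusted p = 0.0379, same test), and without NPC replicate 3, the highest NPC library, by -0.27, which did not pass.

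*Nkd1*, an inhibitor of Dishevelled, fell in the same comparison. It stood at 144, 176 and 173 CPM in NPC and 76.1, 75.8 and 78.2 in NPC(+), a log2 fold change of -1.09 ± 0.18 (adjusted p = 0.00033, edgeR's quasi-likelihood test, BH-adjusted). In NSC it was 67.3, 66.5 and 71.6 CPM and in NR 35.6, 63.5 and 35.7 CPM, with replicate 2 apart from the other two. The log2 fold changes against NPC were -1.26 ± 0.18 and -1.86 ± 0.18. *Nkd2*, its paralogue and no member of the set, went the other way in NPC(+), from 3.52, 3.91 and 3.96 CPM in NPC to 17.4, 16.8 and 18.4 CPM, at 2.22 ± 0.15 (adjusted p = 1.34e-07, same test).

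*Lef1* and *Tcf7* encode DNA-binding partners of β-catenin and are themselves raised by the pathway in many tissues. *Lef1* stood at 13.0, 16.5 and 16.3 CPM in NPC, 21.7, 20.6 and 21.02 in NPC(+), 8.99, 6.66 and 8.50 in NSC and 21.9, 11.9 and 16.2 in NR. It fell in NSC against NPC (-0.90 ± 0.21, adjusted p = 0.00131, edgeR's quasi-likelihood test, BH-adjusted) and was higher in NR than in NSC (1.04 ± 0.20, adjusted p = 0.000728). *Tcf7* stood at 5.43, 6.00 and 5.64 CPM in NPC, 3.19, 4.71 and 4.34 in NPC(+), 25.2, 30.6 and 28.7 in NSC and 58.9, 49.6 and 48.8 in NR. It rose by 2.31 ± 0.14 in NSC and 3.21 ± 0.15 in NR over NPC, and NR was above NSC by 0.90 ± 0.12 (adjusted p = 5.98e-05, same test). In NPC(+) *Tcf7* was lower in all 3 libraries but did not pass (-0.43 ± 0.18, adjusted p = 0.110).

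*Sp5*, a transcription factor gene that is a direct canonical target in the embryo, had 3 counts in NPC and none in NPC(+), a group in which it cannot be compared. It stood at 4.41, 5.80 and 3.93 CPM in NSC and 6.59, 21.8 and 5.62 in NR, which were 44.4-fold (95% exact interval from counts 15.1 to 216) and 114-fold (38.7 to 551) higher than NPC. NR was called higher than NSC (1.28 ± 0.46, adjusted p = 0.0364, edgeR's quasi-likelihood test, BH-adjusted), but the excess lay in replicate 2, and without it the log2 fold change was 0.37 and did not pass. It was also lost without NSC replicate 3. Per length, *Nkd1* held 84.9% of the summed TPM of these 5 genes in NPC, 63.9% in NPC(+) and 48.7% in NSC, and *Tcf7* held 51.1% in NR.

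**Figure D5:**
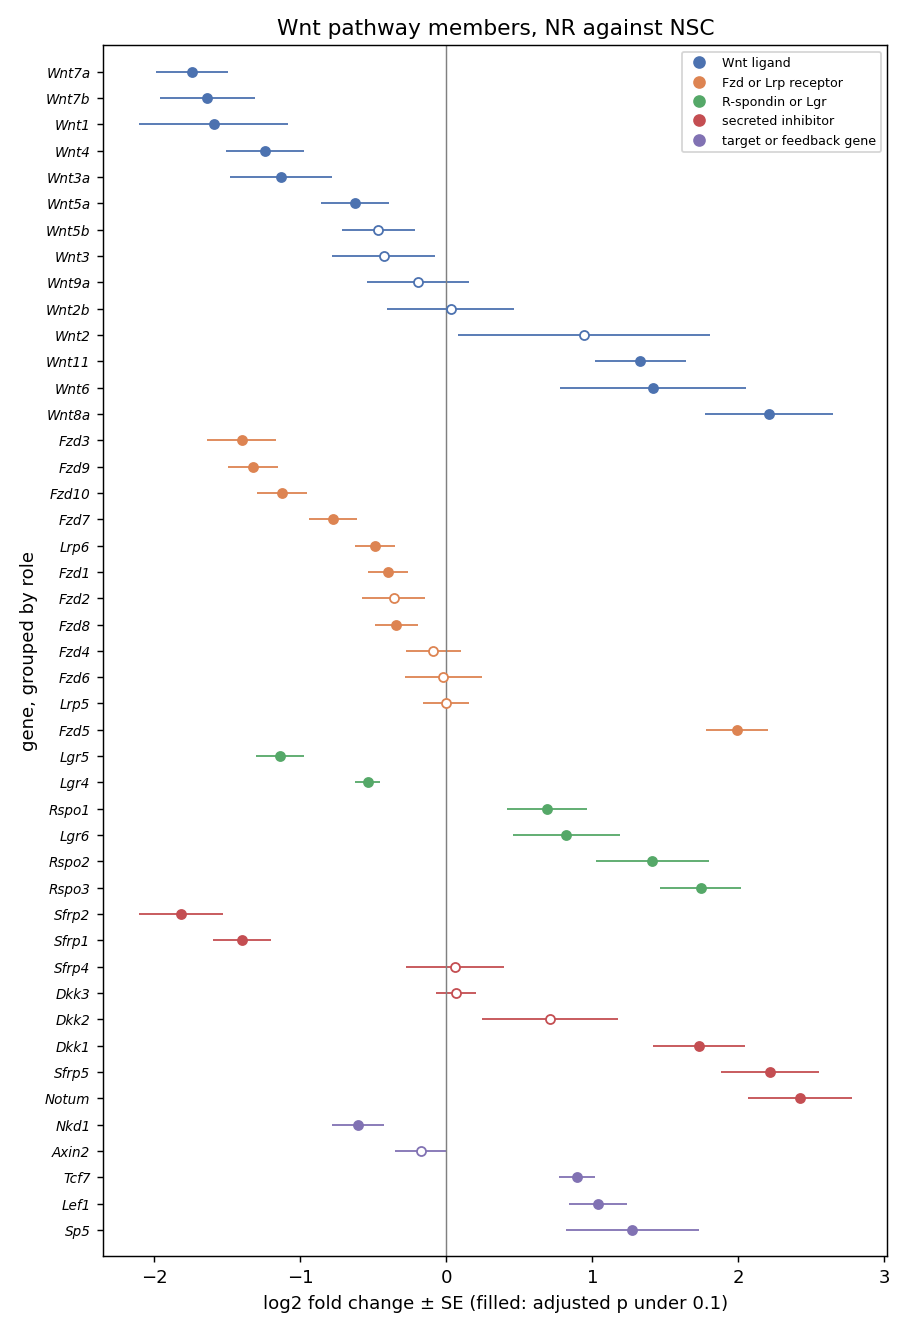
Log2 fold change of the NR-labelled libraries against the NSC-labelled ones with its standard error for the 45 tested members, grouped by role (3 libraries a group; filled points passed at an adjusted p under 0.1). Receptors lie mostly to the left with *Fzd5* alone far to the right, and *Sfrp1* and *Sfrp2* lie opposite to *Dkk1*, *Sfrp5* and *Notum*.

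A further list of 55 genes of the pathway, from Wnt secretion to the destruction complex, transcription and planar polarity, was described in the same way, and 54 were tested. Between NPC(+) and NPC 15 were higher and 17 lower (59.3%, against 44.3% of all genes), between NSC and NPC 34 and 12 (85.2%, against 78.1%), between NR and NPC 26 and 19 (83.3%, against 79.8%), and between NR and NSC 12 and 27 (72.2%, against 56.6%). By group of genes, 8 of 10 of the destruction complex and 8 of 11 of signal transduction were lower in NR than in NSC (26.6% of all genes), with medians of -0.44 and -0.45 against 0.01 over all genes. They are named as the most one-sided groups of the list in that comparison, and the share over all genes is not matched for level.

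Among further inhibitors, *Shisa2*, which keeps Frizzled and FGF receptors from the cell surface, rose in NPC(+) from 1.01, 1.26 and 0.835 CPM in NPC to 5.50, 7.85 and 8.67 CPM (2.84 ± 0.25, adjusted p = 1.16e-06, edgeR's quasi-likelihood test, BH-adjusted). It reached 68.2 to 87.0 CPM in NSC and 72.5 to 87.8 CPM in NR. *Wif1*, a secreted inhibitor that binds Wnt proteins, went in the opposite direction. It stood at 186, 154 and 162 CPM in NPC, 76.7, 79.1 and 76.2 in NPC(+), 0.914 to 1.57 in NSC and 1.29 to 1.48 in NR. The log2 fold change against NPC was -1.115 ± 0.13 in NPC(+) (adjusted p = 1.45e-05, same test), -7.15 ± 0.17 in NSC and -6.91 ± 0.17 in NR. *Frzb*, a Frizzled-related gene, stood at 0.417 to 0.656 CPM in NPC, 21.1 to 39.8 in NSC and 24.6 to 26.8 in NR. It rose by 5.87 ± 0.33 in NSC and 5.54 ± 0.33 in NR over NPC.

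*Porcn*, the enzyme that attaches the lipid to Wnt ligands, stood at 6.26 to 9.55 CPM in NPC, 6.66 to 9.89 in NPC(+), 18.0 to 21.4 in NSC and 58.5 to 88.5 in NR, a rise of 3.15 ± 0.19 in NR over NPC (adjusted p = 4.81e-09, edgeR's quasi-likelihood test, BH-adjusted). *Myc*, a growth gene listed among canonical targets, was lower in NSC and NR than in NPC by -4.15 ± 0.16 and -3.55 ± 0.16. It was lower also in NPC(+), by -1.49 ± 0.15 (adjusted p = 3.23e-06, same test). Of the 6 further targets in the list, 2 were higher and 2 lower in NPC(+) than in NPC (21.6% and 22.7% of all genes). *Cer1*, *Cdx1*, *Cdx2* and *Sostdc1* were the 4 genes of the list more than 4-fold higher in NR than in NSC. *Cer1* and the Cdx genes are known from the early embryo outside the nervous system, and the 4 tested mesoderm and endoderm markers were all higher in NR than in NSC too, summing to 35.4 to 70.1 CPM over the list of 6 against 6.595 to 14.1, and their part was not tested.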

How the data were processed

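RNA was taken from 12 cultures, 3 in each of 4 groups, which were read from the titles and cell types in the labels. The study isolated RNA with a PicoPure kit, amplified it with SMART-Seq v4 and sequenced it. The authors deposited raw counts of reads per Ensembl gene, with no normalization. The submitters' processing notes name STAR 2.6, RSEM 1.1.14 and mm10, without giving their roles. The strand setting and the treatment of shared reads are not given in the sources used here, so reads of overlapping genes cannot be told apart. Symbols, coordinates and exon lengths came from GENCODE M21 for GRCm38, while 563 genes had no symbol (0.124% of all counts). Promoters came from RefSeq (GRCm38.p6).

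Counts were scaled by TMM in edgeR 4.0.16, filtered by filterByExpr and fitted with glmQLFit and glmQLFTest over all 12 libraries with no block (prior count 0.125). P values were adjusted by the Benjamini-Hochberg method over 17003 genes, and a gene was called at an adjusted p under 0.1 with no fold threshold. Each standard error was obtained by dividing the fitted log2 fold change by √F. CPM uses TMM library sizes, and TPM was computed from exon lengths to compare genes. A group was at the floor with 3 counts or fewer in each library. Intervals and floors cover counting error only. The procedure was tested on simulated data with 200 changed genes. Members with a call were described by library, up to 6 for each role in order of TPM, and the others by ranges. Genes of the further list could be named only if called beyond 4-fold; *Fzd10* was added to the 6 receptors after its values were seen. The members, lists and markers were chosen with earlier results of these data known.

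Same-numbered libraries labelled NR and NSC deviated together from their group means (correlations 0.229, 0.490 and 0.296), which is the source of that pairing; no label states it. Alternatives were DESeq2 1.42.0, other scalings and filters, the block, fits of 2 groups, other thresholds and the omission of each replicate. Omission of NSC replicate 2 together with NR replicate 1 or NR replicate 2 was added after seeing the data.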

Additional observations from a re-analysis of the deposited data

How the results depend on the processing

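No called fold change reversed its sign under any alternative fit. Mean TPM, however, was not below NPC for some members called lower. In NSC these were *Lrp5* (3.715 against 2.91 in NPC), *Fzd4* (4.63 against 4.21) and *Fzd9* (61.15 against 60.7). In NR they were *Lrp5* (3.30 against 2.91), *Axin2* (5.45 against 5.35), *Fzd1* (34.3 against 32.4) and *Wnt5a* (7.236 against 7.205). The other members called lower were lower in TPM too. With a threshold of more than 4-fold, 2 members were higher and 1 lower in NPC(+) than in NPC, 1 was lower in NSC and 1 in NR than in NPC, and 3 were higher and 0 lower in NR than in NSC (edgeR's quasi-likelihood test), while 3, 14, 19 and 4 genes of the further list were called in the 4 comparisons. Over all genes, the shares higher and lower at that threshold were 3.87% and 1.92%, 19.5% and 5.9%, 22.0% and 6.03%, and 7.34% and 0.124%. The 0 stands beside 18 lower calls without a fold threshold. Of the 2 members higher in NPC(+), *Rspo1* rested on 9 counts against 1 in NPC. At an adjusted p under 0.05, 6 members were higher in NPC(+). Members lower in NPC(+) numbered 5 with no filter and 6 with only those libraries fitted. With 1 replicate left out, 6 to 10 members were higher in NPC(+) against 12, and 3 to 4 were lower. These smaller fits have fewer libraries. The cause of the other shifts was not tested.

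In NPC(+) against NPC, NSC against NPC and NR against NPC, same-numbered libraries correlated at -0.047 to 0.048. Such low correlations cannot exclude a shared clone or day, since counting error in shallow libraries can hide one. No label states a pairing here either. With the replicate block, 14 and 4, 32 and 6, and 31 and 10 members were higher and lower. DESeq2 called 13 and 4 in NPC(+). Leaving out NSC replicate 2 and NR replicate 2, added after seeing the data, gave 15 higher and 23 lower in NR against NSC. Levels in CPM in place of TPM gave *Fzd9* 20.8% of the sum of the 12 receptors in NPC, against 39.7% in TPM. In mean CPM it was close to *Fzd1* there (64.2 against 62.8). The depth of NPC and NPC(+) limits the 13 members at the floor.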
